A study of Mus musculus with 12 samples.

Results

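The alternative first exons of BV-2 cells, an immortalised mouse microglial line, were taken from the transcript catalogues of 12 RNA sequencing libraries. A first exon was counted once per gene and chromosome by the position of its inner end, where the first intron begins, and it was called alternative where its gene had at least 2 such positions over the 12 libraries. This gave 47678 alternative first exons in 11033 genes, out of 50920 first exons (93.6%) and 14275 genes (77.3%), and 3242 genes had a single first exon. The libraries formed 4 groups of 3: untreated cells (Control), cells given lipopolysaccharide (LPS, a component of the bacterial outer membrane that activates microglia), cells given nicotinamide mononucleotide (NMN, from which cells make NAD), and cells given both (LPS+NMN). The submitters' design sets LPS against LPS+NMN, in a study of ferroptosis, a form of cell death driven by iron and lipid peroxidation. Dose and exposure time are not given in the sources used here, no genotype differs between the groups, and every library comes from 1 cell line. The labels do not say whether replicate libraries stem from separate cultures, and p-values here therefore cover only the spread between these libraries, which may be technical.

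The labels give the cell type as macroglia, whereas BV-2 is a microglial line. All 14 microglia and macrophage markers looked up were in the catalogues, 12 of them in all 12 libraries. Of the markers of other cells, 2 of 5 for astrocytes, 2 of 5 for neurons, 4 of 5 for oligodendrocytes, 3 of 7 for T and B lymphocytes and 3 of 5 for fibroblasts were listed in at least 1 library. Aqp4 (astrocytes), Rbfox3 and Snap25 (neurons), Mog (oligodendrocytes) and Cd3e (T cells) were listed in none. A listing says that a transcript was assembled, not how abundant it was.

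A gene that can start transcription at several promoters makes messenger RNAs that differ in their first exon, and so in the 5′ untranslated region and at times in the first amino acids. Which promoter is used often depends on the cell type or on a signal. In macrophages and microglia, LPS and interferon act through NF-kB, interferon regulatory factors and STAT proteins, which bind short promoter motifs. One such motif is the interferon-stimulated response element, and genes such as Adar, an RNA-editing enzyme, are known to have an interferon-inducible promoter beside a constitutive one.

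The sequences printed here are the 250 bases before annotated starts of first exons that were listed in all 9 treated libraries and in no Control library. They cover the interferon-induced genes named next, each with a RefSeq promoter. Other genes of this pattern, Apol9a and Apol9b among them, are not printed. For Gbp3 and Parp11 the start of a first exon found in all 12 libraries stands beside it. These pairs were picked because they show the contrast within 1 gene. Gbp2 and Gbp3 encode interferon-induced GTPases, Parp11 an enzyme that transfers ADP-ribose from NAD, Ifit3b an antiviral protein, Slfn5 a Schlafen family protein and Ifi44 an interferon-induced protein. They are from RefSeq on GRCm38.p6, run 5′ to 3′, and carry in capitals the interferon-stimulated response element, searched on both strands as GAAA, any 2 bases and GAAA, and the STAT motif GAS, searched as TTCNNNGAA. In Gbp3 a pair of response elements overlap each other, and in Parp11 a response element overlaps a GAS match. The Ifi44 sequence holds no exact match to either pattern and is therefore all in lower case. Variants of the patterns were not searched, so the lack of a match does not show that a promoter lacks the element.
Gbp3, first exon in the 9 treated libraries (chr3:142559794-142560043, plus strand): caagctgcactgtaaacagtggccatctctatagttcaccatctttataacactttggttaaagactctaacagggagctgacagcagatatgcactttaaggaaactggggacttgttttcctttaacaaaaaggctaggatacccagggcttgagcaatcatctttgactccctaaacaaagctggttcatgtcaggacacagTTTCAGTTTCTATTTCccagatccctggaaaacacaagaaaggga
Gbp3, first exon in all 12 libraries (chr3:142560106-142560355, plus strand): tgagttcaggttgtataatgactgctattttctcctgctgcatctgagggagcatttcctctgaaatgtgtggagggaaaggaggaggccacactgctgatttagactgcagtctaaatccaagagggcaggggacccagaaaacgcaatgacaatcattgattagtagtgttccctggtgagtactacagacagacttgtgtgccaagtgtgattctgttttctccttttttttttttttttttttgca
Parp11, first exon in the 9 treated libraries (chr6:127446590-127446839, plus strand): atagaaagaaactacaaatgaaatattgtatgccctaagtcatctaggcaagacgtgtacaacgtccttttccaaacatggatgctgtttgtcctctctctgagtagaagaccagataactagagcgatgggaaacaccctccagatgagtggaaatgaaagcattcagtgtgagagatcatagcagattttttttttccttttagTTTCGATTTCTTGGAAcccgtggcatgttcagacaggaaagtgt
Parp11, first exon in all 12 libraries (chr6:127453377-127453626, plus strand): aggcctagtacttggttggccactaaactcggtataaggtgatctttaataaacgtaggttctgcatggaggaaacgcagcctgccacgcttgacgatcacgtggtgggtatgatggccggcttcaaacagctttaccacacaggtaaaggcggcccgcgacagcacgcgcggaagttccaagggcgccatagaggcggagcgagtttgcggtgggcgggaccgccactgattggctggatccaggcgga
Gbp2, first exon in the 9 treated libraries (chr3:142620413-142620662, plus strand): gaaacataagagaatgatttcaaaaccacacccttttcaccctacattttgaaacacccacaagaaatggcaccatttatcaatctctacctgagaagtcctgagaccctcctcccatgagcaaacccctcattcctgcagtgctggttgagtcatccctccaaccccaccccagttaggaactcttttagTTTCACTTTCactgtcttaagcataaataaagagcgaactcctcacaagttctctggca
Ifit3b, first exon in the 9 treated libraries (chr19:34607707-34607956, plus strand): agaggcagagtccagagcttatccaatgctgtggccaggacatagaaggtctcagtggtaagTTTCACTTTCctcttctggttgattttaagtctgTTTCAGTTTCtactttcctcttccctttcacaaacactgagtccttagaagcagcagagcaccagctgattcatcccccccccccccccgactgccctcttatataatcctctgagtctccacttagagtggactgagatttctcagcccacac
Slfn5, first exon in the 9 treated libraries (chr11:82951852-82952101, plus strand): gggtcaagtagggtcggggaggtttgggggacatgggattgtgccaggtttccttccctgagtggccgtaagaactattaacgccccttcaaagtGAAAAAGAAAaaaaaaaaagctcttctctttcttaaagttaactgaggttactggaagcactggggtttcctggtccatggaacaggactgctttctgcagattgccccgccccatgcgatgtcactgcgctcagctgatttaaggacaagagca
Ifi44, first exon in the 9 treated libraries (chr3:151749911-151750160, minus strand): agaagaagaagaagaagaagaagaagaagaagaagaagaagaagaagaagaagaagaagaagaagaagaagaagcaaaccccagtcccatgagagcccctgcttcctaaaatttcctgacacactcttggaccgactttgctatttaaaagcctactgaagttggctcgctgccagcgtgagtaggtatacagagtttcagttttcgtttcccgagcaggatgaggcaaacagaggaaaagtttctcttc

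The response element lay before the Gbp3 and Parp11 first exons of treated cells and not in the 250 bases before the first exons that all 12 libraries held. As these pairs were picked to show it, the contrast restates the choice. Upp1 also had 1 annotated first exon missing only from Control and another in all 12 libraries, and neither had a match. The element was not limited to starts of treated cells: the Ifi203 first exon in all 12 libraries (chr1:173770021-173770058) had 1 match, and the annotated Cybb first exon, in the 3 Control libraries and 1 NMN library, had 3. Among the first exons missing only from Control, 23 RefSeq promoters of 21 genes could be matched, and 10 of the 23 (8 of the 21 genes) held this element, against 2.98% of all 32851 RefSeq promoters of the same length. The other matches belonged to Edn1, the precursor of the vasoconstrictor endothelin, and to Apol9a and Apol9b, near-identical neighbours whose reads may be shared. Apol9a and Apol9b each entered with overlapping promoters of more than 1 start, all with the same stretch. The same sequence is therefore counted repeatedly among the 10 promoters, and under both names among the 8 genes. GAS was in 2 of the 23 (7.02% of all promoters) and the AP-1 motif TGANTCA in 5 (6.75%). TATAAA was in 1 (12.4%) and the NF-kB motif in 0 (7.25%). These are matches of letters, not measured binding, and the genes were picked by their listing pattern.

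Most genes held few alternative first exons and a minority held many. The median was 4 per gene with a mean of 4.32. There were 2921 genes with 2 first exons, 2416 with 3, 1774 with 4 and 1312 with 5, while 498 genes had 10 or more. Dst, which encodes a giant linker of the cytoskeleton and is known for its tissue-specific promoters, had the most with 31. Arid1a, a subunit of a chromatin remodelling complex, Itpkb, an inositol phosphate kinase, and Rnf213, an interferon-induced ubiquitin ligase, had 23 each. Cacna1a, Cplane1 and Mid1 had 22, Ago2 21, and Akap13 and Birc6 20. These totals came mostly from first exons seen once: 26 of the 31 in Dst and 17 of the 23 in Rnf213 were listed in 1 library only, and no first exon of either gene was in all 12. In a single library Dst had between 1 and 13.

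A different group of genes held several first exons in every library. Arhgef2, an exchange factor for small GTPases, had 8 first exons in all 12 libraries out of 13. Hnrnpf, an RNA-binding protein, and Ube2d3, a ubiquitin-conjugating enzyme, each had 7 first exons and all 7 were in every library. Ncor1, a transcriptional corepressor, and Ssrp1, a histone chaperone subunit, had 7 of 8, and Zbtb7b, a zinc finger repressor, 7 of 16. Over the 11033 genes, 3747 had 1 first exon common to all 12 libraries, 1546 had 2, 494 had 3 or more and 5246 had none. In 462 genes the set of first exons was identical in all 12 libraries. In 2787 genes no single library listed more than 1 first exon, so that their alternatives come only from setting libraries side by side, and in 2437 genes every library listed at least 2.

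Recurrence fell into 2 extremes. Of the alternative first exons, 21173 (44.4%) were in 1 library only and 8486 (17.8%) were in all 12, with 873 in 8 libraries as the least filled class. Alternative last exons, counted in the same way, were in 1 library in 45.9% of cases and in all 12 in 9.71%. A first exon was called annotated where its inner end had the spacing of a first exon of the gene in GENCODE M21. That held for 13.1% of the 20310 placed first exons seen in 1 library and for 96.5% of the 8275 placed ones seen in all 12. Over all placed first exons 41.7% were annotated, 9658 ended at the inner end of an annotated internal exon, 29.7% ended at no annotated position and 7.61% lay on the strand opposite to the gene.

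**Figure D1:**
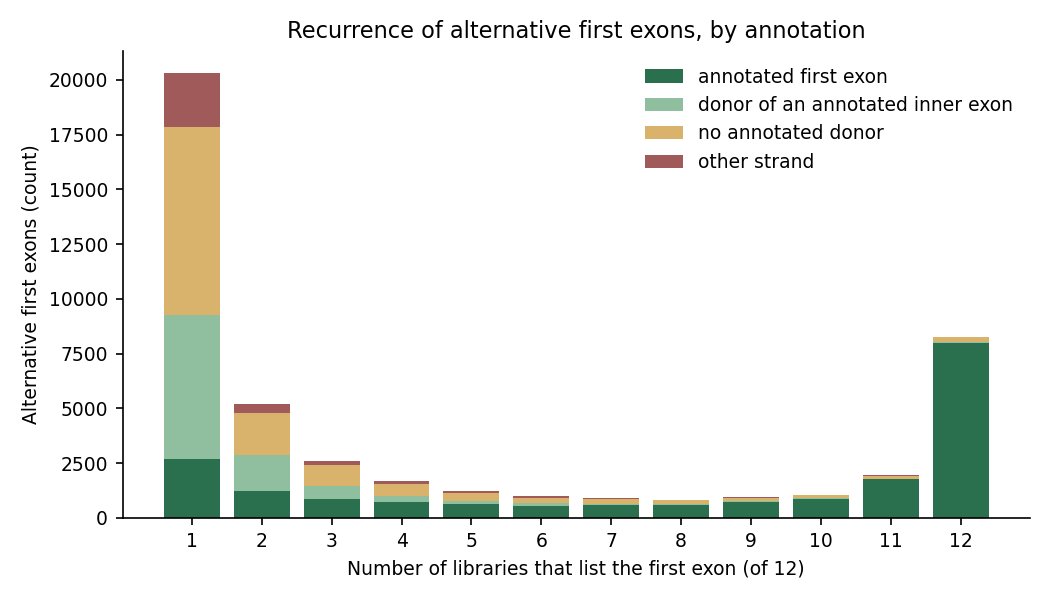
Number of alternative first exons (count, vertical axis) by the number of libraries that list them (1 to 12, horizontal axis), stacked by how the inner end compares with GENCODE M21; only first exons of genes placed on the annotation are drawn. Of the 20310 placed first exons in 1 library 13.1% are annotated, and of the 8275 in all 12 libraries 96.5%.

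Position within the gene went with recurrence. In the 7449 genes with at least 3 first exons on the gene's own strand, 32.9% of the most upstream first exons were in all 12 libraries, against 17.3% of those between and 11.3% of the most downstream. The median length was 203 bases for first exons in all 12 libraries and 158 for those in 1. Inner ends that neighbour each other in a gene were a median of 1301 bases apart, with 11.1% within 100 bases and 46.0% within 1000. In 9208 genes (83.5%) at least 2 first exons on the gene's strand did not overlap, while in 1683 genes all of them overlapped. The 3498 first exons on the opposite strand were spread over 2055 genes, 70.6% of them were in 1 library and 29 were in all 12. Genes with alternative first exons had a mean of 1.42 splicing events per library (such as skipped exons and retained introns), and genes with 1 first exon 0.618.

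The number of alternative first exons per library did not separate the groups. Control libraries held 18592, 17913 and 17463, LPS libraries 18072, 17821 and 18189, NMN libraries 17563, 18173 and 18506, and LPS+NMN libraries 17994, 18109 and 18403. All 4 groups overlapped, and Control alone held both the highest and the lowest library. The Control mean was 17989 ± 568, and the means with LPS, NMN and LPS+NMN were 18027 ± 188, 18081 ± 478 and 18169 ± 211 (SD, n = 3). By the two-sided exact permutation test, p was 1 for LPS against Control, 0.8 for NMN against Control, 0.6 for LPS+NMN against Control and 0.5 for LPS+NMN against LPS, where 3 against 3 cannot go below 0.1. Without Control replicate 3 each treated mean lay below the Control mean, with differences of -225 for LPS, -172 for NMN and -83.8 for LPS+NMN. Sequencing depth is unknown for these catalogues.

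**Figure D2:**
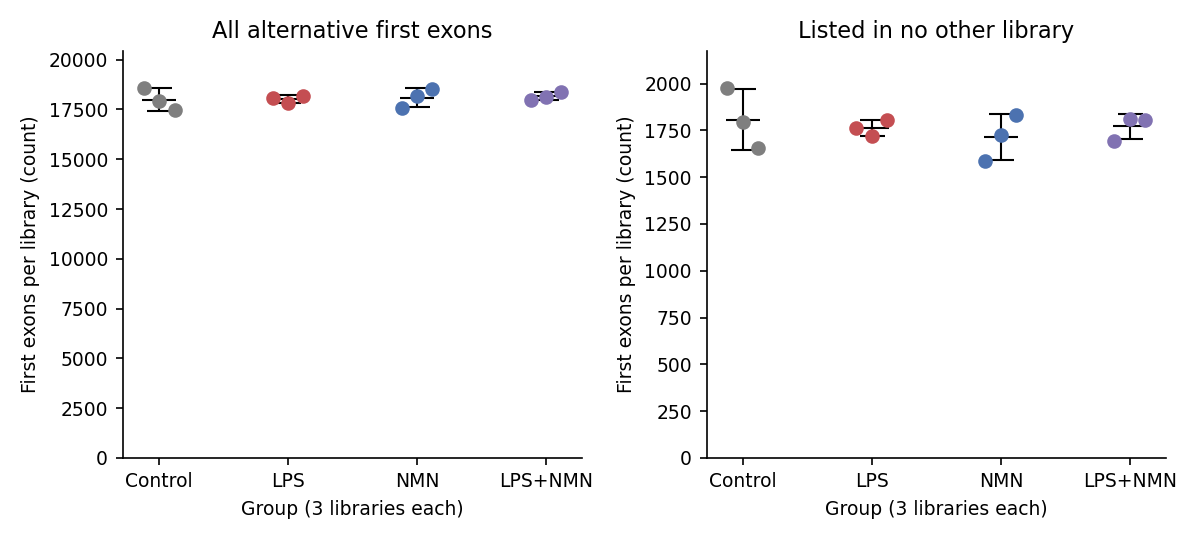
Alternative first exons per library (count, vertical axis) in the 4 groups; points are libraries, and the horizontal marks with bars are the mean and SD of 3 libraries. The left panel counts all of them, between 17463 and 18592 per library, and the right panel those found in no other library, between 1588 and 1978; the groups overlap in both.

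Presence by group was not even. Of all alternative first exons 46.8% (22308) were listed in 1 group only, and 21173 of these were in 1 library. A stricter count asked for all 3 libraries of a group and none of the other 9. It gave 25 first exons only in Control (0.0511% of all first exons met the same condition), 20 only in LPS (0.0393%), 12 only in NMN (0.0236%) and 21 only in LPS+NMN (0.0412%). The reverse count, in all 9 libraries of the other groups and in none of the group's own, gave 55 first exons missing only from Control (0.114%), 6 missing only from LPS (0.0118%), 6 from NMN (0.0118%) and 5 from LPS+NMN (0.0118%). No test applies to these counts. Leaving out 1 library of the group at a time, which loosens both conditions, gave 76 to 86 first exons missing only from Control, against 24 to 31 for LPS, 20 to 31 for NMN and 19 to 25 for LPS+NMN. Those in 1 group only then became 120 to 128 for Control, 105 to 107 for LPS, 81 to 103 for NMN and 108 to 116 for LPS+NMN, so that for Control the order of the only-in and missing-only counts turned round. Last exons, which the rule does not use, were counted with all libraries kept. Of 35867 last exons, 29 were missing only from Control, 4 from LPS, 4 from NMN and 5 from LPS+NMN. Those only in a group were 23 for Control, 18 for LPS, 12 for NMN and 10 for LPS+NMN.

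**Figure D3:**
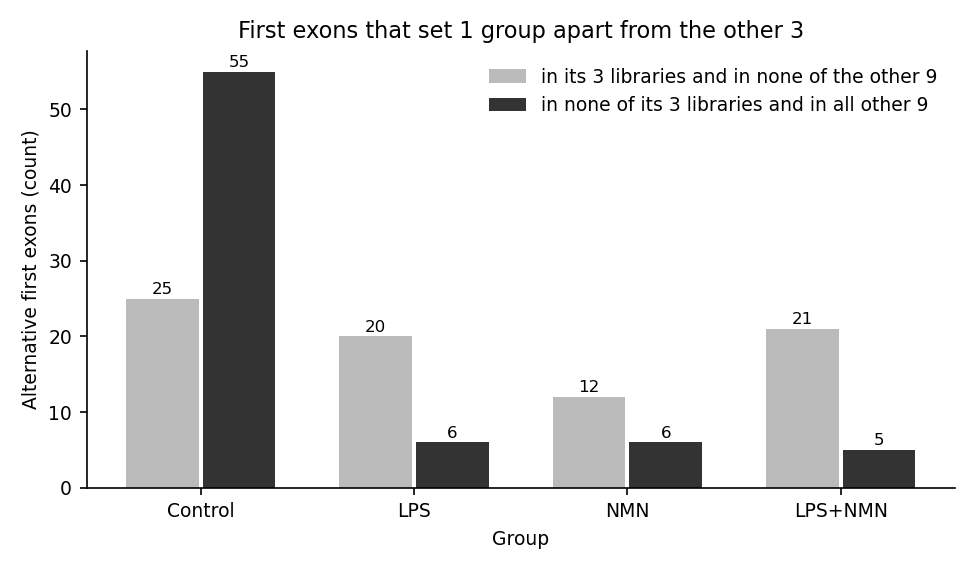
Alternative first exons (count, vertical axis) that are in all 3 libraries of a group and in none of the other 9 (light bars), or in none of its 3 libraries and in all other 9 (dark bars), for each group. The dark Control bar stands at 55, and those of LPS, NMN and LPS+NMN at 6, 6 and 5.

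The 55 first exons shared by all treated libraries and missing only from Control lay in 50 genes, which are named after their values were seen. Of the 53 in placed genes 35 were annotated first exons. For 34 of the 55 the gene was itself listed in all 12 libraries, so that the exon and not the gene was new to the catalogue. For the other 21 the gene was missing from at least 1 library, and there use of a promoter and presence of any transcript cannot be told apart. Gbp2, Gbp3, Ifi44, Ifit3b, Irf7 and Slfn5 were 6 of the 41 genes with alternative first exons in the type I interferon list described further on, beside 50 of all 11033 genes with alternative first exons. Ifi203, Isg20, Parp11 and Rtp4 are also known to be induced by interferon, are not in that list and were picked out after the values were seen. Signalling proteins and secreted factors of inflammation were Tnfaip3, Csf3, Ccl22, Il36a and Edn1. Prdm1 and Runx1 are transcription factors. The rest include genes with no such role, such as Vmp1, an autophagy protein, Upp1, which cleaves uridine, Urah, an enzyme of urate breakdown, Prkar2b, a regulatory subunit of protein kinase A, and Ntng2, a membrane-anchored netrin, with 4 first exons of this pattern.

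Irf7, a transcription factor that drives type I interferon genes, had 2 first exons, both annotated. The upstream one (chr7:140846303-140846334, minus strand) was in all 12 libraries. The downstream one (chr7:140845536-140845932) was in all 9 treated libraries and in none of the 3 Control libraries. Gbp3 showed the opposite order: the upstream first exon (chr3:142265813-142266044, plus strand) was in the 9 treated libraries only, and the downstream one (chr3:142266172-142266451) in all 12. Parp11 was like Gbp3, with chr6:127423493-127423962 in the 9 treated libraries and chr6:127430611-127430785 in all 12. First exon positions are those in the files throughout, on an unnamed mouse assembly other than GRCm38.

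Tnfaip3, which encodes the NF-kB inhibitor A20, had 1 first exon in all 12 libraries (chr10:18890901-18891158, minus strand) and a more downstream one (chr10:18890150-18890322) in the 9 treated libraries only. The RefSeq promoter of the common first exon held 2 matches to the NF-kB motif. Isg20, an interferon-induced exonuclease, had an annotated first exon in 12 libraries and an unannotated one (chr7:78563740-78563800), whose inner end lies 10 bases further downstream, in the 9 treated libraries. With inner ends within 10 bases merged these are 1 first exon. Runx1, known for a distal and a proximal promoter in blood cells, had annotated first exons at chr16:92622822-92623037 in all 12 libraries and at chr16:92492372-92494216 in 11, 2 of them Control. A further, unannotated one (chr16:92417473-92417637) was in the 9 treated libraries only. Gbp2 was listed with 1 first exon in each library: the 9 treated libraries shared an annotated one (chr3:142326363-142326569), and each Control library held a different start at an internal exon. Upp1 had 1, 1 and 2 first exons in Control, 4, 3 and 4 in LPS, 4, 2 and 3 in NMN and 5, 5 and 4 in LPS+NMN libraries, with chr11:9068507-9068660 in the 9 treated libraries only.

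**Figure D4:**
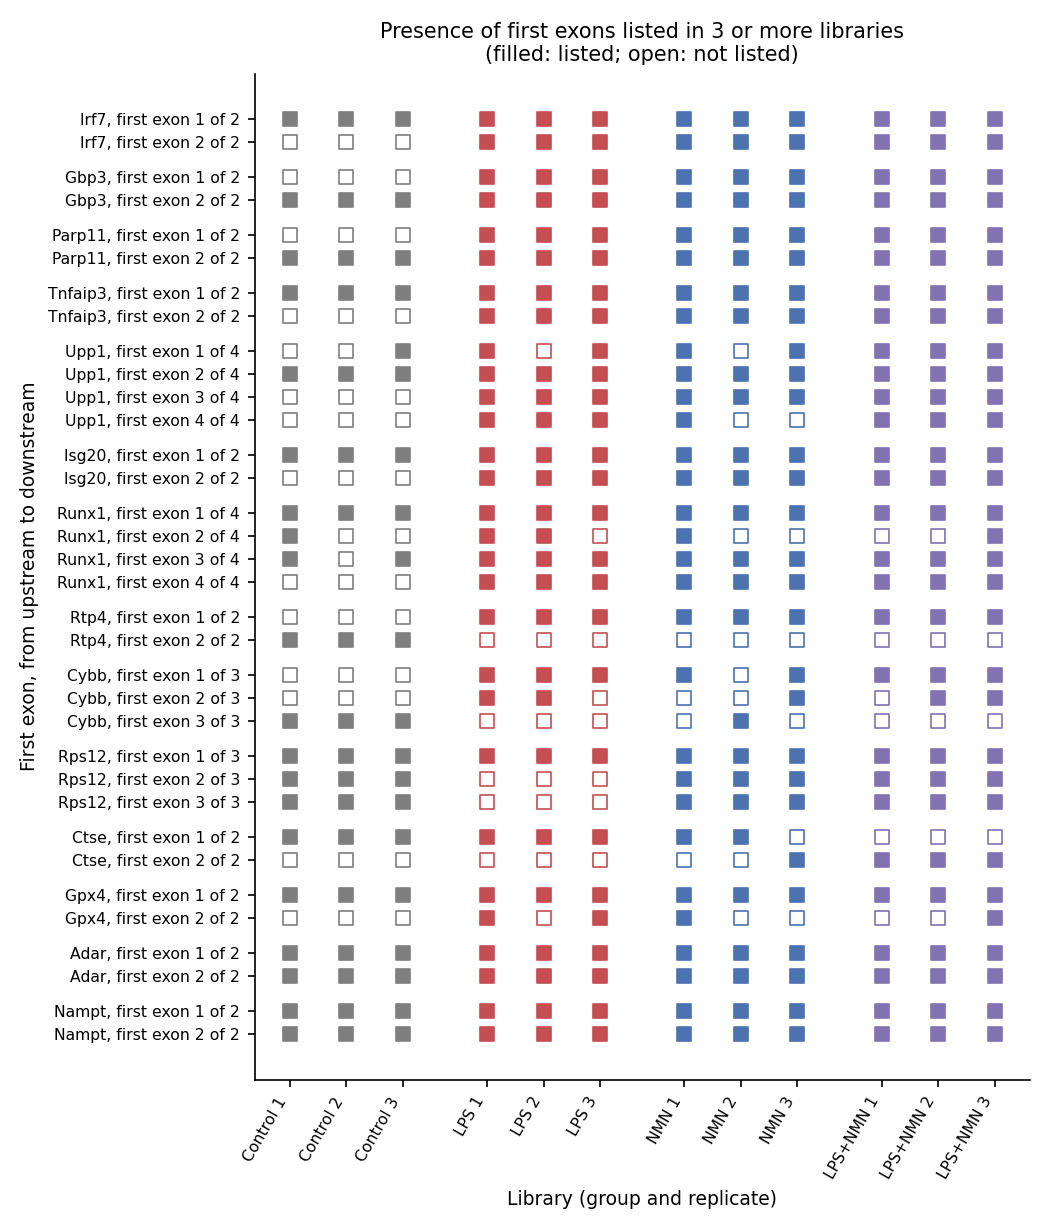
Presence of the first exons of 14 genes in each library (columns; filled squares are listed, open squares are not), drawn from upstream to downstream within a gene and only for first exons in 3 or more libraries. Irf7, Gbp3, Parp11, Tnfaip3 and Isg20 each have 1 row filled in all 12 libraries and 1 row open in the 3 Control libraries only, while both rows of Adar and of Nampt are filled throughout.

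The numbers of first exons per gene were then tested with limma on log2(first exons + 1), in 1 fit of all 4 groups over 9426 genes, 9214 of which have alternative first exons. Since 1 is added before the log is taken, differences understate the change of small numbers and are not folds. Compared with Control, LPS libraries held more first exons in 16 genes (0.17% of genes tested) and fewer in 5 (0.053%), at a limma adjusted p under 0.05, and for 8 of the 16 no Control library listed the gene. NMN libraries held more in 12 (0.127%) and fewer in 4 (0.0424%), and LPS+NMN libraries more in 14 (0.149%) and fewer in 3 (0.0318%). Of those raised, 8 and 7 were absent from all Control libraries. The 3 comparisons share the Control libraries, so what they have in common can come from those libraries.

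Ntng2 had the largest difference. It was listed with 0 first exons in each Control library, 5, 6 and 6 in LPS, 5, 9 and 6 in NMN and 5, 7 and 6 in LPS+NMN libraries, and no treated library overlapped Control. The log2 differences from Control were 2.73 ± 0.21 for LPS, 2.90 ± 0.21 for NMN and 2.80 ± 0.21 for LPS+NMN (SE, limma adjusted p 2.12e-10, 4.16e-11 and 1.14e-10). Apol9b, an apolipoprotein L, was in no Control library and had 3 first exons in every treated library but LPS+NMN replicate 3, which had 2 (2.00 ± 0.23, 2.00 ± 0.23 and 1.86 ± 0.23). Il36a, a cytokine related to interleukin-1, had 0 in each Control library, 3, 2 and 2 in LPS, 2, 2 and 1 in NMN and 2, 2 and 3 in LPS+NMN libraries (1.72 ± 0.24, 1.39 ± 0.24 and 1.72 ± 0.24). Urah likewise went from 0 in all 3 Control libraries to 2, 2 and 2 in LPS, 1, 2 and 2 in NMN and 3, 2 and 2 in LPS+NMN libraries. Ntng2, Apol9b, Il36a and Urah were tested only because treated libraries listed them. Their differences and p-values therefore mostly restate the zeros in Control, where a gene entering the catalogue and a gain of first exons cannot be told apart.

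Some genes already listed in every Control library passed as well. Mx2, an interferon-induced antiviral GTPase, had 1, 1 and 1 first exons in Control, 5, 3 and 3 in LPS, 3, 2 and 3 in NMN and 3, 4 and 3 in LPS+NMN libraries. Its log2 difference was 1.19 ± 0.22 with LPS (limma adjusted p 0.00686), 0.86 ± 0.22 with NMN (0.145) and 1.11 ± 0.22 with LPS+NMN (0.0153). Upp1 passed with LPS (1.02 ± 0.22, limma adjusted p 0.0349) and with LPS+NMN (1.30 ± 0.22, 0.00258), and gave 0.77 ± 0.22 with NMN (0.222). Prkar2b had 1 in each Control library, 4, 3 and 3 in LPS, 3, 2 and 5 in NMN and 2, 2 and 3 in LPS+NMN libraries, and passed with LPS (0.0304) and NMN (0.0495). Taf3, a subunit of the general transcription factor TFIID, had 1 in each Control library, 4, 3 and 4 in LPS, 1, 1 and 3 in NMN and 3, 4 and 3 in LPS+NMN libraries, and passed with LPS (0.0163) and LPS+NMN (0.0408). Osbp2, an oxysterol-binding protein, passed with NMN alone (1.11 ± 0.22, 0.0206), though it gave 0.91 ± 0.22 with LPS and with LPS+NMN, and NMN was not tested against LPS. The calls of Prkar2b with LPS and of Taf3 with LPS+NMN held in 5 of 13 other settings each and were lost whichever single library of the compared groups was left out (largest limma adjusted p 0.203 and 0.25). Prkar2b with NMN held in 6 of the 13, and Upp1 and Taf3 with LPS and Osbp2 with NMN in 7.

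Fewer first exons were called in a handful of genes. Rps12, a ribosomal protein, had 3 in every library except the 3 LPS libraries, which had 1 each (log2 difference -1.0 ± 0.20 against Control, limma adjusted p 0.0157); the upstream first exon was in all 12 libraries and both downstream ones were missing only from LPS. The Rps12 call against Control held in 8 of 13 other settings. It was lost with only the 2 groups compared, and without replicate 1 or 3 of either group (largest limma adjusted p 0.0778). Against LPS, the LPS+NMN libraries gave 1.00 ± 0.20 for Rps12 with an adjusted p of 0.0577 by limma. Zfp568, a zinc finger repressor, had 4 in each Control library and 1 in each LPS and NMN library, and in LPS+NMN libraries 4, 1 and 1. Its calls with LPS and with NMN were lost with any 1 library of the compared groups left out.

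Of the gene calls against Control, those of Ntng2, Apol9a and Apol9b in all 3 comparisons, those of Il36a and Urah with LPS and with LPS+NMN, and those of Upp1 and Zfp811 with LPS+NMN held in each of the 13 other settings and left-out libraries. Ntng2, Apol9b, Il36a and Urah were in no Control library, so for them this mostly repeats the zeros in Control. Leaving out LPS replicate 1 brought the calls for LPS against Control from 21 to 6, and leaving out LPS+NMN replicate 3 those for LPS+NMN against Control from 17 to 8. Without NMN replicate 3 the 16 calls of NMN against Control became 8.

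NMN added to LPS was the comparison the submitters' design names. At the level of first exons it gave 2 calls among 9426 genes: Asns, the asparagine synthetase, with more (0.0106%) and Malt1, a protease of NF-kB signalling, with fewer (0.0106%). Asns had 2, 3 and 3 first exons in Control, 2, 1 and 1 in LPS, 3, 3 and 3 in NMN and 4, 4 and 4 in LPS+NMN libraries (log2 difference from LPS 1.13 ± 0.21, limma adjusted p 0.0395). Malt1 had 3, 3 and 6 in Control, 3, 4 and 5 in LPS, 2, 2 and 1 in NMN and 1, 1 and 1 in LPS+NMN libraries (-1.30 ± 0.24, 0.0395). The LPS and LPS+NMN libraries did not overlap in either gene. Both calls were lost in 8 of 13 other settings, among them each left-out LPS+NMN library and LPS replicate 3. At an unadjusted p under 0.05 limma gave 480 of the 9426 genes here. Against Control it gave 741, 659 and 768 of the same 9426 for LPS, NMN and LPS+NMN. The 480 are a share close to the threshold of 0.05 itself, which genes without any difference would also give.

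Entry and loss of single first exons were counted as those in all 3 libraries of one group and in 0 of 3 of the other, with no test, since 3 against 3 cannot go below an exact p of 0.1. LPS gained 248 against Control (0.665% of all first exons listed in the 6 libraries were gained) and lost 186 (0.493%). NMN gained 213 (0.573%) and lost 141 (0.378%), and LPS+NMN gained 251 (0.685%) and lost 173 (0.464%). Against LPS, LPS+NMN gained 151 (0.401%) and lost 102 (0.27%). In genes listed in all 6 libraries the gained and lost numbers were 191 and 163 for LPS (0.571% and 0.487%), 170 and 126 for NMN (0.509% and 0.377%), 202 and 150 for LPS+NMN (0.603% and 0.447%) and 132 and 96 for LPS+NMN against LPS (0.392% and 0.285%). Of all last exons, 0.647% were gained and 0.501% lost with LPS, 0.436% and 0.367% with NMN, 0.585% and 0.465% with LPS+NMN, and 0.338% and 0.363% with LPS+NMN against LPS. In genes listed in all 6 libraries last exons gave 109 and 110, 74 and 84, 89 and 105, and 80 and 89, so that for them losses were as many as gains or more. Where 1 of 3 libraries was allowed in the group that lacks the exon, the first exons gained and lost with LPS became 660 and 638, and 574 and 591 in genes listed in all 6 libraries. Leaving out any library of the reference group raised losses more than gains, since it loosens the condition for a loss. Losses then exceeded gains in each comparison. In genes listed in all 6 libraries, gains and losses without Control replicate 3 were 297 and 458 for LPS, 268 and 400 for NMN and 316 and 429 for LPS+NMN, and without LPS replicate 2 they were 260 and 343 for LPS+NMN against LPS. Leaving out any library of the other group loosens the condition for a gain, and gains then exceeded losses in each comparison. For LPS against Control without LPS replicate 1 they were 443 and 293. The order follows the group that is thinned, so these runs cannot decide whether gains exceed losses.

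**Figure D5:**
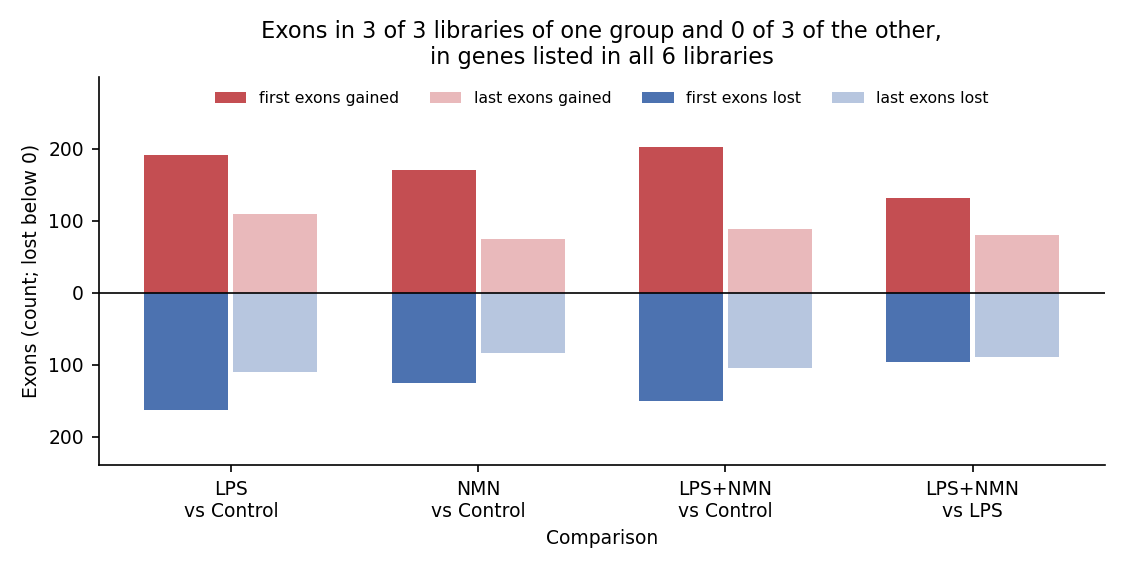
Exons in all 3 libraries of one group and in none of the other (count, vertical axis; gained above 0, lost below 0) in the 4 comparisons, for genes listed in all 6 libraries. First exons (dark bars) gave 191 gained and 163 lost for LPS, and 132 and 96 for LPS+NMN against LPS, an order that turns round when a library of the reference group is left out; last exons (light bars) gave as many losses as gains or more.

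A gene was said to switch where, among genes listed in all 6 libraries, 1 first exon was gained and another lost. LPS against Control gave 18 switching genes (0.197% of 9128), NMN against Control 12 (0.131%), LPS+NMN against Control 9 (0.0985%) and LPS+NMN against LPS 8 (0.0865%). The inner ends of the pair were between 101 and 124517 bases apart over the 4 comparisons. In 4, 1, 2 and 2 of these genes the pair lay on opposite strands, so the change there is between first exons listed on different strands. An exon listed on the strand opposite to the gene is called antisense below by that listing alone. Whether it belongs to a true antisense transcript was not tested. Last exons gave 21, 9, 20 and 13 switching genes.

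Rtp4, an interferon-induced chaperone of receptors, switched in all 3 comparisons with Control. Its first exon at chr16:23427807-23427887 was in the 9 treated libraries and in no Control library, the one at chr16:23428669-23428899 was in the 3 Control libraries and in no other, and both were annotated. Cybb, the catalytic subunit of the phagocyte NADPH oxidase, had its annotated first exon (chrX:9335445-9335563, minus strand) in the 3 Control libraries and NMN replicate 2, and an unannotated upstream one (chrX:9336849-9337253) in the other 8. That made it switch with LPS and with LPS+NMN and not with NMN. Dusp8, a phosphatase of MAP kinases, had its annotated first exon (chr7:141648660-141649009) in 3 Control libraries and in LPS replicates 1 and 3, and a start at an internal exon (chr7:141643681-141643880) in the other 7.

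The other LPS switches named are those with the most distant inner ends, and in 8 of the 18 pairs these ends lay 285 to 699 bases apart. Distant inner ends need not mean distant starts. In Lrfn4 the paired exons overlapped (chr19:4665410-4665720 and chr19:4663184-4665530, minus strand). Fbxw7, a ubiquitin ligase subunit, paired a gained antisense exon with a lost annotated one, their inner ends 124517 bases apart. Car8, Fyco1 and Zfp273 each lost an annotated first exon, and in Zfp273 the gained one (chr13:67970403-67970486) was in the 3 LPS libraries alone. Lrfn4, Oit3, Scaf4 and Chst3 were the remaining named ones, and Scaf4 and Chst3 involved an antisense exon. With NMN, Tapbp, which loads peptides on MHC class I, Prss50 and Cetn4 each exchanged annotated first exons. The inner ends of these pairs were 3760, 2963 and 2064 bases apart. In Cetn4 the lost exon (chr3:37366506-37366569, minus strand) lay within the gained one (chr3:37364442-37366595). Atr, a kinase of the DNA damage response, had its annotated first exon (chr9:95739650-95739836) in 0 Control libraries and all 3 NMN libraries, beside an antisense one in the 3 Control libraries and in no NMN library. Bloc1s1, chosen after its values were seen, lacked its annotated first exon (chr10:128759244-128759393) in the 3 NMN libraries alone, where a longer one (chr10:128758523-128759393) with the same outer end was listed.

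For LPS+NMN, Ctse, the protease cathepsin E, and Tmed9, a cargo receptor of the secretory pathway, switched against both Control and LPS. The annotated first exon of Ctse (chr1:131566031-131566295, plus strand) was in all Control and LPS libraries and in NMN replicates 1 and 2, and the one at chr1:131600372-131600506 was in NMN replicate 3 and the 3 LPS+NMN libraries. For Tmed9 the annotated first exon (chr13:55740982-55741170) was in all Control and LPS libraries and NMN replicate 1, and one further upstream (chr13:55718936-55719238) in NMN replicate 3 and the 3 LPS+NMN libraries. In Slc35c1, a GDP-fucose transporter, and Rfc4, a clamp loader subunit, 1 annotated first exon was in the 3 LPS libraries alone and another was in no LPS library and in all 3 LPS+NMN libraries. Mcu, the mitochondrial calcium uniporter, and Il1a, an inflammatory cytokine, paired an annotated first exon with an antisense one.

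Gene lists were described by how many members held alternative first exons and gained or lost one, with no test of the list. All 16 genes listed as having inducible alternative promoters held alternative first exons, with a median of 6 per gene against 3 over all listed genes. None passed limma in any comparison. Irf7 gained a first exon in each comparison with Control, Il15 with LPS and Irf5 with NMN. Adar kept both annotated first exons (chr3:89622329-89622457 and chr3:89638055-89638145) in all 12 libraries. Il1rn, the interleukin-1 receptor antagonist, kept 3, Il15 3, Rcan1, a calcineurin regulator, 2, Aim2, a DNA sensor, 2 and Crem, a cAMP-responsive factor, 5. Of 34 genes with tissue-selective promoters 27 held alternative first exons, again with a median of 6. Runx1 gained a first exon in each comparison with Control, and Tpm3, a tropomyosin, gained one with NMN and lost another with LPS+NMN. Dnmt3a, a DNA methyltransferase, gained one in LPS+NMN libraries against LPS.

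The type I interferon list of 50 genes had 41 with alternative first exons and a median of 3 per gene. Of the 33 tested, Mx2 and Slfn5 passed with LPS, Ifit3b with NMN, and Ifit3b and Mx2 with LPS+NMN, and none had fewer. The Slfn5 call held in 5 of 13 other settings, and those of Ifit3b in 7 and 8 of 12. Each was lost when any 1 library of its treated group was left out. Neither gene was in all 12 libraries, so a gene entering the catalogue cannot be told apart there from a gained first exon. Mx2 held in 12 of 13 settings with LPS and in 10 with LPS+NMN. The median log2 difference was 0.19 with LPS, 0.11 with NMN and 0.19 with LPS+NMN, against 0 over all genes tested. First exons were gained in 8 of the 50 genes with LPS, 8 with NMN and 9 with LPS+NMN, and lost in 0, whereas over all 14275 genes 231, 200 and 230 gained one and 179, 137 and 170 lost one. Against LPS, LPS+NMN gained one in Slfn8 only. Of 42 Toll-like receptor and NF-kB genes, Tnfaip3 gained a first exon in each comparison with Control, Irak2 with LPS, Bcl3 and Irf5 with NMN and Tlr3 with LPS+NMN, and Tab1 lost one with LPS+NMN. Of 28 cytokine and LPS-induced genes listed, Csf3 and Il36a gained one in each comparison with Control, Il18 with LPS and NMN, and Il15 with LPS. Tgfb1 lost one with LPS+NMN, and against LPS the LPS+NMN libraries both gained and lost one in Il1a.

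Ferroptosis and NAD genes bear on the question of the study. Over all genes 231 of 14275 gained a first exon with LPS and 21 of 9426 tested passed limma, so lists of this length would hold few or none at the same rate. Of 31 ferroptosis, iron and glutathione genes 27 held alternative first exons, 20 were tested, none passed limma, and none gained or lost a first exon against Control. Gpx4, the peroxidase that detoxifies lipid hydroperoxides, kept its annotated first exon (chr10:79889322-79889549, plus strand) in all 12 libraries. Its second annotated one (chr10:79889871-79890134) was in LPS replicates 1 and 3, NMN replicate 1 and LPS+NMN replicate 3 and in no Control library. Nfe2l2, the transcription factor NRF2, and Acsl4, which loads polyunsaturated fatty acids into lipids, each had 1 first exon in all 12 libraries. Slc7a11, the cystine transporter, had its first exon at chr3:50397434-50398060 in Control replicates 1 and 3, in no LPS library and in all NMN and LPS+NMN libraries, the only gain of the list against LPS. Of 26 NAD genes 21 held alternative first exons and 19 were tested, and none passed limma. Nampt, which makes NMN from nicotinamide, kept 2 annotated first exons in all 12 libraries. Sirt1, an NAD-dependent deacetylase, had its annotated first exon at chr10:63172759-63172771 in the 3 Control libraries, LPS replicate 3 and LPS+NMN replicate 2, and so lost it with NMN, while chr10:63174344-63174811 was in all 12.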

How the data were processed

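Each library's deposited file is a catalogue of transcript events; per the file headers a line gives event type, gene, chromosome, start, end, pattern and strand. The coordinates in the authors' files are positions and carry no score, read count, expression level or depth, so neither depth per sample nor counting error can be given, and the count tests foreseen for expression data do not apply. Per the submitters' processing notes the build was GRCm38 and the tools BWA 0.7.12, HOMER and MACS2 2.1.0; which program wrote these catalogues is not given in the sources consulted. Each TSS line was taken as a first exon: in 100% of the 241961 lines the pattern is the inner end of the exon. No line was repeated within a file, and every column of samples was used.

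Positions did not match GRCm38: of 12940 genes placed on GENCODE M21 by the spacing of their inner exon ends, 1.91% had a shift of 0. File positions were not converted, and annotation classes rest on spacing. RefSeq promoters (8782 of 11033 genes matched by symbol) are on GRCm38.p6.

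Numbers of first exons per gene were tested with limma (version 3.58.1, R version 4.3.3; trend and robust moderation) on log2(number + 1), over genes with at least 1 first exon in 3 libraries; 1500 genes fell below this and 3349 had the same number in all 12 libraries. Benjamini-Hochberg adjustment was used with a threshold of 0.05, and the procedure was tested on simulated data. Tables were made with pandas in Python. Library totals were compared by exact permutation tests. Other settings were another pseudocount (0.5), other filters, moderation and groups in the fit, a replicate block, merging inner ends within 10 bases, a looser absence rule and leaving out each library. Counts by group were added to these after seeing the data. Replicate numbers did not pair the libraries.

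The genes named are, per comparison, up to 10 with more and 10 with fewer first exons past the threshold in groups that do not overlap, up to 8 that switch by largest distance (clone names left out of both), the 10 with the most first exons, list members with an exon gained or lost, and anchor genes; others are said to be chosen after their values were seen. Some genes that the rule names are not reported here. The members, lists and anchors were chosen with earlier results of these data known.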

Additional observations from a re-analysis of the deposited data

Results flagged for a closer look

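The effect of LPS in the presence of NMN (LPS+NMN minus NMN) was compared with its effect without NMN (LPS minus Control) in 1 limma interaction term over the 9426 genes tested. The effects differed in 2 genes at an adjusted p under 0.05, both listed in no Control library. For Ntng2 the difference between the effects was -2.84 ± 0.29 on the log2(first exons + 1) scale (SE, limma adjusted p 4.97e-07), with 0 first exons in each Control library and between 5 and 9 in each library of the other 3 groups. For Apol9b it was -2.14 (SE 0.33, limma adjusted p 0.00128), with 0 first exons in each Control library and 2 or 3 in each treated library. In both genes LPS, NMN and LPS+NMN libraries overlapped one another, and the genes were tested only because treated libraries listed them. The difference therefore mostly restates the zeros in Control, since the log2 difference of LPS from Control was 2.73 for Ntng2 and 2.00 for Apol9b, and shows no separate effect of NMN on the response to LPS. Apol9b shares its sequence closely with Apol9a, so its listing is uncertain.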

How the results depend on the processing

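Of 719 values of single genes recomputed under another setting, 495 kept their side of the threshold, 224 fell below it and 0 reversed; 15 of 56 gene calls held in every setting run. The causes of the following shifts were not tested. Calls of first exons per gene (21 for LPS, 16 for NMN, 17 for LPS+NMN against Control, and 2 for LPS+NMN against LPS) became 47, 45, 47 and 7 without trend and robust moderation, and 50, 32, 38 and 16 with only the 2 groups compared in the fit. With at least 2 first exons needed in 3 libraries they were 10 for LPS, 7 for NMN and 1 for LPS+NMN against LPS. Same-numbered libraries did not deviate together (correlations between -0.03 and 0.02 over 18 pairs); the replicate block gave 24, 14, 19 and 0 calls. Leaving out 1 library gave 6 to 29, 8 to 19, 8 to 28 and 0 to 2 calls.

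Exons set apart (434, 354, 424 and 253 gained or lost) became 1298, 1172, 1286 and 1031 where absence allowed 1 of 3 libraries; in genes listed in all 6 libraries they became 1165, 1077, 1152 and 977, and switching genes 41, 34, 35 and 33. Leaving out 1 library loosens the same condition and gave 869 to 907, 753 to 831, 847 to 936 and 627 to 661 exons, 736 to 781, 668 to 721, 728 to 809 and 568 to 603 in listed genes, and 44 to 52, 30 to 47, 36 to 61 and 26 to 38 switching genes. Exons only in 1 group became 120 to 128 for Control, 105 to 107 for LPS, 81 to 103 for NMN and 108 to 116 for LPS+NMN, and those missing only from a group 76 to 86, 24 to 31, 20 to 31 and 19 to 25. With annotated first exons alone, those only in a group were 9 for Control, 4 for LPS, 4 for NMN and 5 for LPS+NMN, and 35 were missing only from Control.

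The difference in first exons per library from Control was of no fixed sign. Per listed gene it was -0.00848 for LPS and -0.00696 for NMN. Leaving out 1 library gave -225 to 339 for LPS, with -42.8 without LPS replicate 3 and -0.167 without Control replicate 2. It gave -172 to 393 for NMN, with -121 without NMN replicate 3, and -83.8 to 481 for LPS+NMN; LPS+NMN against LPS gave 24.2 to 229. Alternative first exons numbered 23916 in 7769 genes if listed in at least 2 libraries and 17388 in 6158 genes if in at least 3. Depth is unknown, so a missing first exon may be one that too few reads covered.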
